A study of Homo sapiens with 8 samples.

Results

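Gefitinib and luteolin were compared directly with each other in PC-3 cells, a line derived from human prostate cancer, on 4 of the 8 miRNA arrays of the series. Gefitinib is an inhibitor of the EGFR tyrosine kinase, and luteolin is a plant flavonoid. The 2 gefitinib arrays came from cells that received 60 µM gefitinib for 24 h, and the 2 luteolin arrays from cells that received 60 µM luteolin for 24 h. Both drugs were dissolved in DMSO. The remaining 4 arrays held cells given DMSO alone (2 arrays) or 60 µM of each drug together (2 arrays). They entered the scaling and the estimate of the spread between replicates, and otherwise appear only where named. All 8 samples were of 1 cell line, so that their groups stand for this line alone. The labels call the replicates biological and do not say whether the cultures were grown on separate occasions, so that p-values measure the spread between these samples only.

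miRNAs are short RNAs cut from hairpin precursors. One or both strands of a hairpin, named the 5p and the 3p arm, are loaded into an Argonaute protein and guide it to messenger RNAs, mainly through the seed, bases 2 to 8 counted from the 5′ end. Messenger RNAs that pair with the seed are destabilised or translated less. Neighbouring hairpins are often cut from 1 transcript, while the 2 arms of a hairpin can accumulate to very different extents.

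The sequences below belong to miRNAs detected on all 4 single-drug arrays that the comparison turned on, and are shown because the seed decides which messenger RNAs an arm can recognise. They were taken from RefSeq (GRCh38.p14), are written 5′ to 3′, and carry the seed in capitals.
miR-630: aGUAUUCUguaccagggaaggu
miR-5703: aGGAGAAGucgggaaggu
miR-188-5p: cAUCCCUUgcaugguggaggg
miR-500a-5p: uAAUCCUUgcuaccugggugaga
miR-182-3p: uGGUUCUAgacuugccaacua
miR-183-3p: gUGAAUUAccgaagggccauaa
miR-642a-3p: aGACACAUuuggagagggaacc
miR-4746-3p: aGCGGUGCuccugcgggccga
miR-4443: uUGGAGGCguggguuuu
miR-4651: cGGGGUGGgugaggucgggc
miR-484: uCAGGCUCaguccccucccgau
miR-4451: uGGUAGAGcugaggaca

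miR-630 lies within the gene ARIH1 at chr15:72587277-72587298, and miR-5703 within AGFG1 at chr2:227472162-227472179. miR-188-5p (chrX:50003517-50003537) and miR-500a-5p (chrX:50008443-50008465) both lie within CLCN5. miR-182-3p (chr7:129770406-129770426) and miR-183-3p (chr7:129774928-129774949) are arms of neighbouring hairpins. miR-642a-3p lies within GIPR at chr19:45674978-45674999, and miR-484 lies at chr16:15643301-15643322. RefSeq sequences were matched for 382 of the 462 miRNAs tested and for 22 of the 24 called below. These 22 had 22 distinct seeds, so that no seed recurred among them.

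All arrays were on 1 slide and were read in 1 scan, each with 1887 miRNAs. The software reported 481 and 468 miRNAs as detected with gefitinib, and 479 and 407 with luteolin. Over the 365 miRNAs detected on all 8 arrays, the gefitinib replicates differed by over 2-fold for 2 miRNAs and the luteolin replicates for 41. The SD of the log2 difference between replicates was 0.206 with gefitinib and 0.658 with luteolin, so that the larger spread lay on the luteolin side. Of the 4 epithelial marker miRNAs on the array, 2 were detected on the gefitinib replicate 1 array and on both luteolin arrays, and 1 on the gefitinib replicate 2 array. Their summed scaled signal was 156 and 124 with gefitinib and 141 and 148 with luteolin. No marker of muscle, stroma or liver was detected on any array. Of 6 blood markers, 1 was detected on the luteolin replicate 2 array alone, at a signal of 1.67. One of 2 neuronal markers was detected on every array, at 12.7 and 12.1 with gefitinib and 7.62 and 14.9 with luteolin.

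The direct comparison asked which miRNAs tell the drugs apart. Of 462 miRNAs tested, 24 (5.19%) differed at a limma adjusted p under 0.05, and 22 of them (4.76%) were higher with gefitinib while 2 (0.433%) were lower. Among those detected on all 4 arrays, miR-188-5p, miR-182-3p, miR-4746-3p and miR-3195 were higher and miR-484 lower with gefitinib, and of the 8 fits that left out 1 array these 5 lost their call in the 2 without a gefitinib array. Of the 22 higher, 9 were undetected on both luteolin arrays and could be tested through the gefitinib arrays alone, so that the split of the calls is not read as a direction of the comparison. Over all tested miRNAs the median log2 difference was 0.00, with 232 above 0 and 230 below. The 13 called miRNAs detected on all 4 arrays were 3.29% of the 395 so detected, and 11 were higher (2.78%) and 2 lower (0.506%), with a difference over 2-fold for 8 of the 13. The other 11 were missed by the software on at least 1 luteolin array. At an unadjusted limma p under 0.05 there were 51 higher and 29 lower. A fit of the 4 single-drug arrays alone called 0 miRNAs, with 69 at an unadjusted p under 0.05. Leaving out gefitinib replicate 1 left 1 call and leaving out gefitinib replicate 2 left 6, while 49 were called when luteolin replicate 1 was left out. The split of 22 higher and 2 lower became 24 and 6 with scaling on the miRNAs detected on the 4 single-drug arrays, 21 and 11 with quantile normalization, 40 and 21 with normexp background correction, and 22 and 13 with 16 added to the signal.

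**Figure D1:**
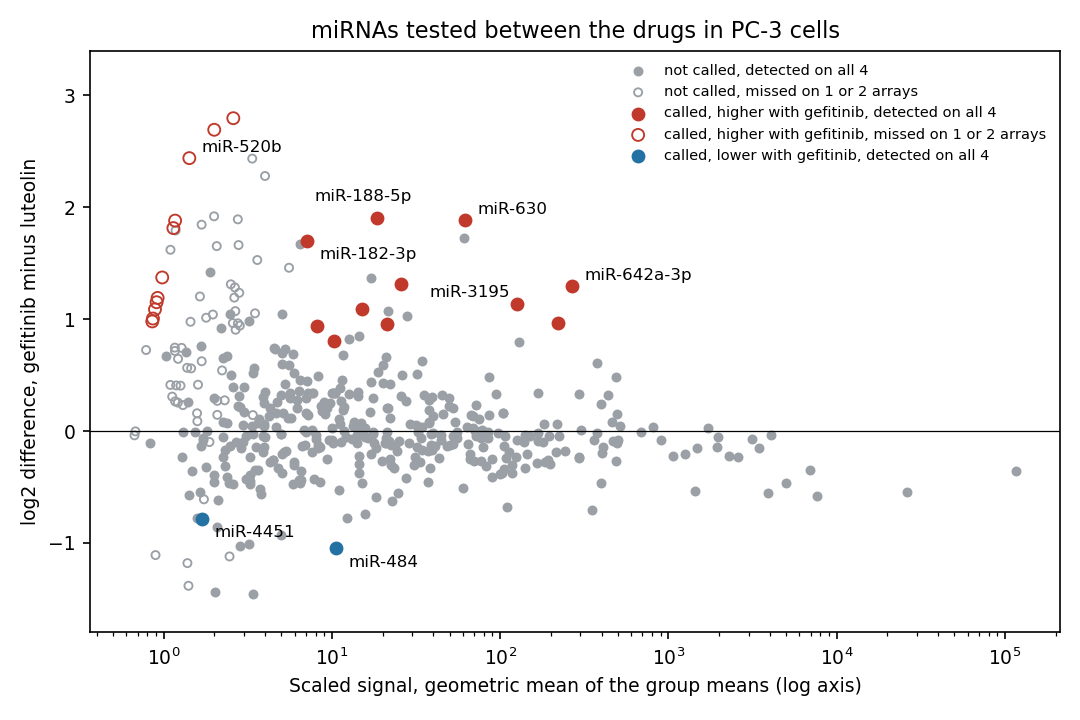
Each point is 1 of the 462 miRNAs tested, with the geometric mean of the gefitinib and luteolin group means of scaled signal on a log axis and the log2 difference, gefitinib minus luteolin, on the vertical axis. The 22 miRNAs called higher lie above 0 in red and the 2 called lower below 0 in blue, and open circles mark miRNAs missed on at least 1 of the 4 arrays.

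miR-630, a miRNA known to respond to DNA damage in cancer cells, was higher with gefitinib. Its scaled signal was 112 and 121 on the gefitinib arrays and 40.2 and 24.8 on the luteolin arrays. Both gefitinib arrays lay above both luteolin arrays, and groups free of overlap were seen for 199 of the 462 miRNAs (43.1%), 108 of them higher with gefitinib (23.4%) and 91 lower (19.7%). The log2 difference was 1.88 (SE 0.36, 95% interval 0.98 to 2.79), or 3.69-fold, with a limma adjusted p of 0.0468. Among the calls detected on all 4 arrays it had the highest adjusted p. It was lost in 13 of 28 alternatives, with 7 of the 8 fits that left out 1 array among them (it was kept without luteolin replicate 1), and the adjusted p ran from 0.0148 to 0.383. Its 2 probes gave log2 ratios of 1.91 and 1.77.

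miR-5703 followed miR-630 closely and stood just outside the threshold. Its signal was 105 and 114 with gefitinib and 42.2 and 25.8 with luteolin, again without overlap. The log2 difference was 1.73 (SE 0.38) with a limma adjusted p of 0.0675, so that it was not called. It was called in 7 of 28 alternatives, with small-RNA control and spike-in scaling, mean spot signals, the series table, normexp, 16 added to the signal and without luteolin replicate 1 (adjusted p from 0.0195 to 0.545 over the 28). The ratio of the miR-630 signal to the miR-5703 signal on the same array was 1.06 on both gefitinib arrays, and 0.952 and 0.960 on the luteolin arrays. The 2 miRNAs share no seed but end in the same 8 bases, shown here in capitals.
miR-630: aguauucuguaccaGGGAAGGU
miR-5703: aggagaagucGGGAAGGU

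An identical end of 8 or more bases occurred in 23 of the 72771 pairs (0.0316%) that the 382 tested miRNAs with a sequence can form. In 8 of these pairs the seeds differed, as they did here. The other 15 pairs shared their seed, as within the let-7 or miR-17 families. In the 8 pairs with different seeds the log2 differences between the drugs lay 0.0626 to 0.635 apart (median 0.138), with miR-630 and miR-5703 0.153 apart, beside a median of 0.441 over all pairs. The part of the shared end in the like signals of miR-630 and miR-5703 was not tested.

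miR-642a-3p, an arm of a hairpin within the gene of the GIP receptor, was higher with gefitinib as well. Its signal was 419 and 411 with gefitinib and 204 and 140 with luteolin. The gefitinib arrays agreed closely and the luteolin arrays did not, and the difference was 2.46-fold (log2 1.30, SE 0.21, limma adjusted p = 0.0265). The call was lost in 6 of the 8 fits without 1 array and was kept only without luteolin replicate 1 or 2. miR-642b-3p, which has the same seed and comes from the hairpin annotated over the same place, had a log2 difference of 1.03 and an adjusted p of 0.0563 by limma. The pair is uncertain as 2 separate readings, since nothing in the files shows that the probes tell these related sequences apart.

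miR-3195 and miR-4746-3p were higher with gefitinib, with replicates of each drug that lay close together. miR-3195 read 188 and 185 with gefitinib and 88.6 and 80.8 with luteolin. miR-4746-3p read 40.0 and 40.8 with gefitinib and 17.3 and 15.2 with luteolin. Their log2 differences were 1.14 (SE 0.14, limma adjusted p = 0.00991) and 1.31 (SE 0.15, limma adjusted p = 0.00946), and both calls were lost only where a gefitinib array was left out, among the 8 fits without 1 array.

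miR-4443 and miR-4651 were 1.95-fold and 2.13-fold higher with gefitinib. For miR-4443 the signal was 300 and 314 with gefitinib and 164 and 150 with luteolin, a log2 difference of 0.96 (SE 0.17, limma adjusted p = 0.0323). For miR-4651 it was 21.0 and 22.8 against 12.1 and 8.64, a log2 difference of 1.09 (SE 0.21, limma adjusted p = 0.0436). Neither pair of groups overlapped. The call of miR-4443 was lost in 5 of the 8 fits without 1 array and that of miR-4651 in 7. miR-4745-5p, the remaining call detected on all 4 arrays, had a log2 difference of 0.80 (limma adjusted p = 0.0377), and its probes differed, at log2 ratios of 0.31 and 1.03. That call was lost in 7 of the 8 fits without 1 array.

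**Figure D2:**
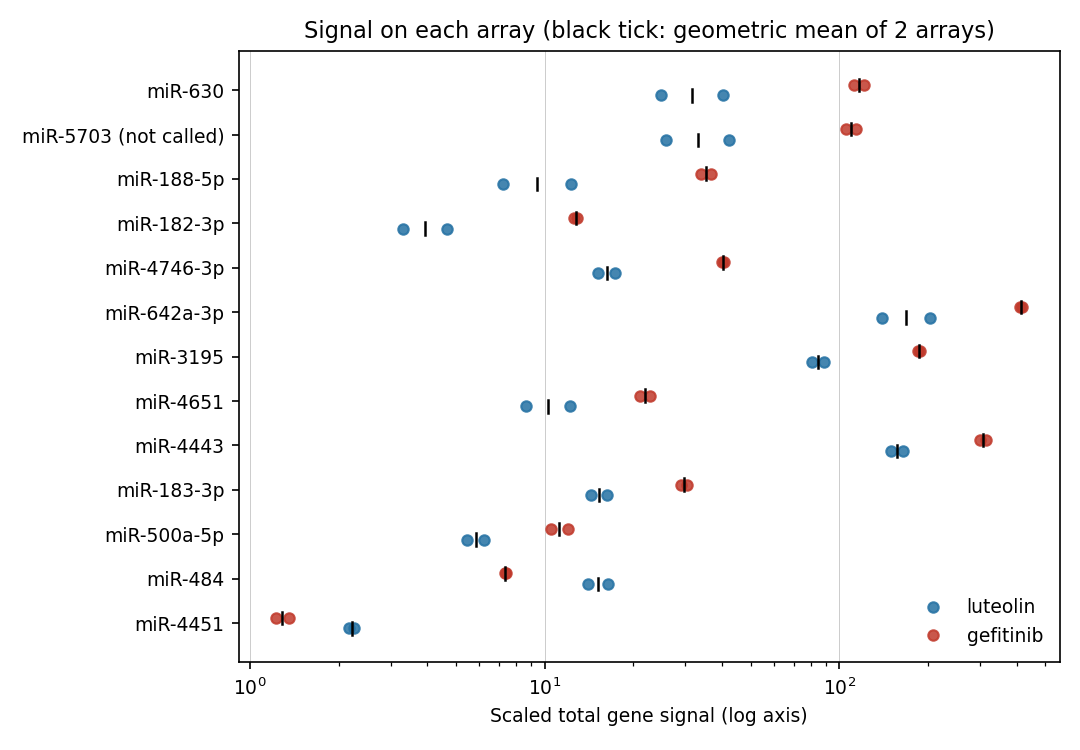
Scaled total gene signal on a log axis for miR-630, miR-5703 and the called miRNAs detected on all 4 arrays that the text names, with 1 point for each of 2 gefitinib and 2 luteolin arrays and a black tick at each geometric mean. The gefitinib points of miR-630 (112 and 121) lie to the right of its luteolin points (40.2 and 24.8), and those of miR-484 (7.31 and 7.40) to the left of its luteolin points (14.03 and 16.4).

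The hairpins within CLCN5 on chromosome X form a cluster of miRNAs that are cut from the introns of that gene. Of its 16 names, 15 were on the array and 11 were tested. miR-188-5p and miR-500a-5p were called higher with gefitinib, and the other 9 did not pass the test, where 4.76% of all miRNAs tested were called higher. The members' median log2 difference was 0.34, with 10 of 11 above 0, beside 0.00 and 232 of 462 for all miRNAs tested. Relative to the median of all miRNAs it was 0.34, also with no scaling, small-RNA control scaling and spike-in scaling, 0.05 with normexp, and 0.14 and 0.53 without luteolin replicate 1 or 2. miR-188-5p read 36.8 and 34.1 with gefitinib and 12.3 and 7.23 with luteolin, a 3.75-fold difference (log2 1.91, SE 0.28, limma adjusted p = 0.0175). Both of its probes showed the difference, at log2 ratios of 2.04 and 1.68.

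miR-500a-5p read 12.001 and 10.471 with gefitinib and 6.22 and 5.47 with luteolin, a log2 difference of 0.94 (SE 0.16, limma adjusted p = 0.0273). Its 3 probes did not agree, with log2 ratios of 1.34, 1.46 and -0.05, and the call was lost in 7 of the 8 fits without 1 array. It ends in the same 11 bases as miR-501-5p of the same cluster, whose log2 difference was 0.31. Among the members not called, miR-502-3p had the largest value, 1.04 (limma adjusted p = 0.0811), and miR-501-3p was the only one below 0, at -0.05. The opposite arm miR-500a-3p had a log2 difference of 0.40.

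The cluster of miR-183, miR-96 and miR-182 on chromosome 7 is a set of 3 hairpins cut from 1 transcript, known from sensory cells and often abundant in epithelial cancers. Of the 5 arms tested, the 3p arms of miR-182 and miR-183 were called higher and the 3 5p arms were not called, again beside 4.76% of all miRNAs tested. The median was 0.60 and all 5 were above 0, as under every other scaling. miR-182-3p read 12.9 and 12.6 with gefitinib and 4.64 and 3.31 with luteolin, a 3.26-fold difference (log2 1.70, SE 0.20, limma adjusted p = 0.00991). miR-183-3p read 28.9 and 30.4 with gefitinib and 14.4 and 16.2 with luteolin (log2 0.96, SE 0.16, limma adjusted p = 0.0273), and its call was lost in 6 of the 8 fits without 1 array.

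The 5p arms, the usual guide strands of the cluster, separated the drugs less clearly. miR-182-5p read 68.2 and 74.8 with gefitinib and 54.3 and 77.7 with luteolin, so that the groups overlapped. miR-183-5p read 51.4 and 57.8 against 33.7 and 65.9, also with overlap. miR-96-5p read 432 and 477 against 217 and 411. Their log2 differences were 0.14, 0.21 and 0.60, and the intervals of all 3 held 0. Without luteolin replicate 1 the cluster's median fell from 0.60 to 0.14, with 3 of 5 above 0. Without luteolin replicate 2 the median rose to 1.04. The difference between the arms of a hairpin was not itself tested.

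For 9 of the 22 miRNAs higher with gefitinib, the software detected no signal on either luteolin array, and 12 of the 462 tested were so. An undetected value was set to a floor of 0.609, so that these luteolin arrays add no spread of their own to the test. Since these miRNAs passed the filter through the gefitinib arrays, where they are high, their p-values are not given and their signals are a description. miR-520b, of the large placental cluster on chromosome 19, read 3.57 and 3.07 with gefitinib and was detected on none of the other 6 arrays. Against the lowest signal detected on each luteolin array, this was a 5.44-fold difference. The mean signal over its spots, before scaling, was 7.28 and 6.40 with gefitinib and 0.639 and 0.610 with luteolin.

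Measured in the same way, miR-769-3p stood at 3.69-fold and miR-3158-5p at 2.59-fold. The spots of miR-769-3p gave 6.53 and 6.67 with gefitinib and 1.59 and 1.11 with luteolin, with the difference mainly in 1 of its 4 probes. Those of miR-3158-5p gave 3.18 and 2.87 with gefitinib and 0.788 and -0.278 with luteolin. The groups of spot means did not overlap for either miRNA.

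For others, the spots on the luteolin arrays stood nearer those on the gefitinib arrays than the undetected values show, so that no fold against the lowest detected signal is given. The spots of miR-432-5p, of the imprinted cluster on chromosome 14, gave 5.78 and 5.13 with gefitinib and 3.996 and 3.195 with luteolin, a ratio of 1.52. One of its probes had a log2 ratio of 0.76 and the other -0.74. let-7i-3p, the less used arm of a let-7 hairpin, had spot means of 3.57 and 4.38 against 2.30 and 2.17, a ratio of 1.78. miR-378a-5p, from an intron of PPARGC1B, had a spot ratio of 1.25 and a difference that turned its sign with normexp, and miR-3945 a ratio of 1.63 with overlapping groups. The calls of let-7i-3p, miR-432-5p, miR-378a-5p, miR-3945, miR-4707-5p and miR-1469 were all lost when mean spot signals were tested. miR-629-3p and miR-4689 were each detected on 1 luteolin array, and their spot ratios were 3.21 and 2.81.

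**Figure D3:**
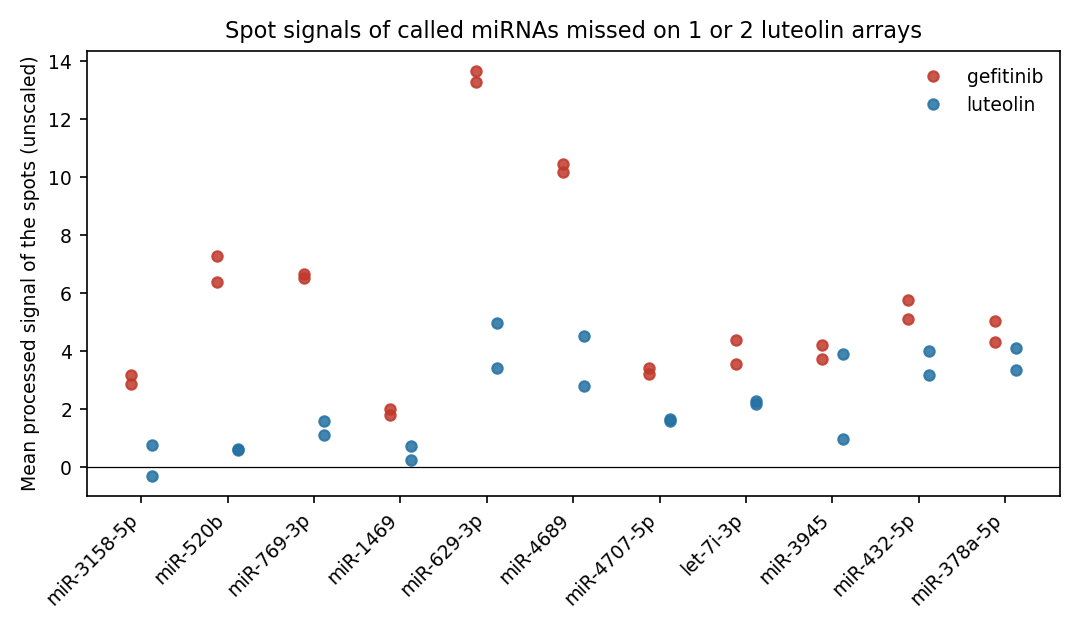
Mean processed signal over the spots of each miRNA, before scaling, for the 11 called miRNAs missed on 1 or both luteolin arrays, with 1 point for each of 2 gefitinib (red) and 2 luteolin (blue) arrays and a line at 0. miR-520b is separated widely (7.28 and 6.40 against 0.639 and 0.610), whereas the gefitinib and luteolin points of miR-3945 overlap.

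Only miR-484 and miR-4451 were called lower with gefitinib than with luteolin. miR-484, known for a hairpin that matures without the nuclear enzyme Drosha, read 7.31 and 7.40 with gefitinib and 14.03 and 16.4 with luteolin. It fell by 1.04 on the log2 scale (SE 0.14, limma adjusted p = 0.0139), or was 2.06-fold higher with luteolin, and its 2 probes gave -1.10 and -0.95. Its call was lost without either gefitinib array and was kept in the other 6 fits without 1 array. miR-4451 read 1.23 and 1.35 with gefitinib and 2.26 and 2.17 with luteolin, near the lower end of detection. It fell by 0.78 (SE 0.13, limma adjusted p = 0.0272). The call was lost in 20 of 27 alternatives, among them mean spot signals and 7 of the 8 fits without 1 array.

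The 5 miRNAs next in order of p among those lower with gefitinib were not called. miR-1280 read 259 and 294 with gefitinib and 455 and 444 with luteolin, a log2 difference of -0.71 (limma adjusted p = 0.0539). For miR-211-3p, from an intron of TRPM1, the signals were 17.5 and 19.1 against 28.8 and 27.5 (log2 -0.62). miR-3907 had a log2 difference of -0.74. The hypoxia-responsive miR-210 read 80.7 and 92.9 with gefitinib and 146 and 131 with luteolin (log2 -0.68, limma adjusted p = 0.0675). miR-4448 had a log2 difference of -1.44 (SE 0.33, limma adjusted p = 0.0713), at 1.23 and 1.21 against 3.45 and 3.17. Its 2 probes gave smaller log2 ratios, -0.68 and -0.63, at signals near the lower end of detection. The lack of overlap was a condition of this choice, and their intervals lay below 0 as the lowest p values were taken. Their adjusted p values did not reach the threshold.

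The miR-320 family and hairpins listed as mirtrons, which lie in short introns, were followed as a group with miR-484. Of 9 tested, miR-484 alone was called (0.433% of all miRNAs tested were called lower), and none was with no scaling or spike-in scaling. miR-320a, miR-320b, miR-320d and miR-320e had log2 differences from -0.41 to -0.31, and miR-320c had -0.005. miR-1224-5p, miR-1225-5p and miR-1228-3p lay near 0, at 0.04, 0.004 and -0.05. Whether the probes tell the related miR-320 members apart was not tested. The median of the 9 was -0.31, with 7 of 9 below 0. Relative to the median of all miRNAs it was -0.32, also with no scaling, small-RNA control scaling and spike-in scaling, -0.16 with quantile normalization, and -0.54 and -0.17 without luteolin replicate 1 or 2. miR-320a read 72.7 and 81.5 with gefitinib and 94.7 and 110 with luteolin (log2 -0.41, limma adjusted p = 0.249).

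The guide arms of 14 conserved families, among them let-7, miR-17, miR-30, miR-29, miR-200 and miR-181, make up much of the well-studied miRNA content of epithelial cells. None of their 68 tested members was called, beside 5.19% of all miRNAs tested and 3.29% of those detected on all 4 arrays. With normexp 5 of the 68 were called lower, with 16 added to the signal 2, and with quantile normalization 1. The 95% limma intervals of 66 of the 68 held 0, so that 2 of them had an unadjusted p under 0.05, beside 80 of the 462 miRNAs. Their median log2 difference was -0.10, with 57 of 68 below 0, and -0.11 relative to the median of all miRNAs. With no scaling, small-RNA control scaling and spike-in scaling, which move every miRNA alike, the median stood above 0 (0.11, 0.15 and 0.17) and the value relative to all miRNAs stayed at -0.11. It was -0.08 with quantile normalization, -0.07 with normexp and -0.36 without luteolin replicate 1, and turned to 0.09 without luteolin replicate 2. For 63 of the 68 the 95% interval lay within 1 log2 unit of 0 on either side, which bounds a difference to under 2-fold. Members ranged from -1.12 to 0.25, and the lowest belonged to the list of the miR-200 family and miR-205.

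The miR-17 and miR-18 seed families, encoded largely by the miR-17-92 cluster and its copies, had 7 of 7 members below 0, with a median of -0.24 that stayed at -0.24 relative to all miRNAs with no scaling, small-RNA control scaling and spike-in scaling, was -0.45 without luteolin replicate 1 and turned to 0.10 without luteolin replicate 2. The miR-181 guide arms had 4 of 4 below 0 and a median of -0.32, also the value relative to all miRNAs under these scalings. That value was -0.26 without luteolin replicate 2 and -0.17 with 16 added to the signal.

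In the smaller lists no member detected on all 4 arrays was called, and with 5.19% of all miRNAs tested called, a count of 0 in lists of 2 to 7 says nothing about them. Of the 40 names of the imprinted chromosome 14 cluster, 7 were tested, with a list median of -0.10. This median turned to 0.78 without luteolin replicate 1 and was -0.50 without luteolin replicate 2. The list's 1 call, miR-432-5p, was undetected with luteolin, had the spot ratio of 1.52 given above, and was lost on mean spot signals. It is not read as a result about the list. Of the miRNAs known to act on EGFR or its pathway 4 were tested and 0 called. Among them miR-7-5p, which targets EGFR and was singled out after its values were seen, read 2.14 and 1.89 with gefitinib and 4.53 and 6.75 with luteolin (log2 -1.46, SE 0.39, limma adjusted p = 0.101). It had the lowest log2 difference of all 462 miRNAs. None of 4 p53-linked miRNAs was called (median 0.12), and miR-34a-5p overlapped between the drugs, at 12.5 and 15.4 against 10.9 and 18.4. The p53-linked median turned to -0.45 without luteolin replicate 1 and was 0.85 without luteolin replicate 2. PC-3 cells lack functional p53. In the cluster of miR-424 and miR-503 6 were tested and 0 called, with a median of 0.00. Of the AhR- and CREB-responsive miR-132 and miR-212 hairpins 2 arms were tested and 0 called (median -0.10).

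**Figure D4:**
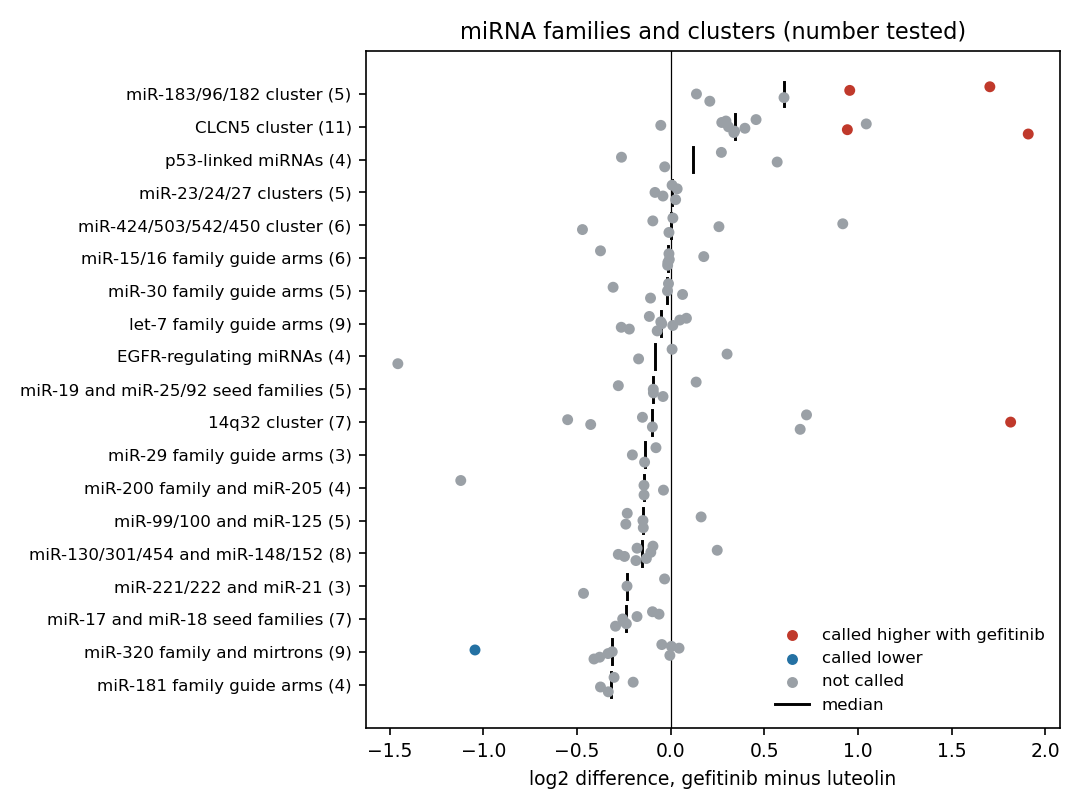
Log2 difference, gefitinib minus luteolin, of each tested member of a family or cluster with at least 3 tested members, with the number tested in parentheses and a black tick at the median. Red points are called higher (2 in the cluster of miR-183, miR-96 and miR-182, 2 in the CLCN5 cluster and, in the chromosome 14 cluster, miR-432-5p, undetected with luteolin), the blue point called lower is miR-484, and grey points were not called.

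Of the 10 brightest miRNAs on the 4 arrays, 3 were called lower with 16 added to the signal and 2 with normexp. In the main setting none of the 10 was called, beside 5.19% of all miRNAs tested and 3.29% of those detected on all 4 arrays. Their log2 differences lay between -0.58 and -0.03, with all 10 below the median of all miRNAs, as under no scaling, small-RNA control and spike-in scaling. With quantile normalization 3 of the 10 lay below that median, with normexp 6, and without luteolin replicate 2 7. miR-21-5p, an abundant miRNA in many cancers, read 3922 and 4104 with gefitinib and 3561 and 4731 with luteolin, with overlap between the groups. Its log2 difference was -0.03 (95% interval -0.59 to 0.52). let-7a-5p read 3062 and 2926 against 2393 and 4139, and its log2 difference of -0.07 had an interval from -0.91 to 0.77. The luteolin arrays lay on either side of both gefitinib arrays, and the DMSO arrays, which enter the same estimate of spread, read 2296 and 3660.

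For 6 of the 10, both gefitinib arrays lay below both luteolin arrays without passing the test, where 19.7% of all miRNAs tested lay so. miR-720, an entry whose sequence matches a transfer RNA fragment, read 22079 and 21400 with gefitinib and 30127 and 33375 with luteolin, a log2 difference of -0.54 (limma adjusted p = 0.114). miR-1260a read 3232 and 3168 against 4477 and 4949 (log2 -0.56, limma adjusted p = 0.103). miR-5100 read 6205 and 6236 against 8659 and 9985 (log2 -0.58, limma adjusted p = 0.0954). The log2 differences of the others without overlap were -0.47 for miR-1273g-3p, -0.36 for miR-4454 and -0.34 for miR-4284. With overlap, they were -0.23 for miR-125b-5p and -0.15 for miR-100-5p.

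Levels under DMSO and under both drugs place these differences beside the rest of the series, as a description and with no further test. On the log2 scale, the DMSO mean lay nearer the luteolin mean for 10 of the 11 miRNAs called higher and detected on all 4 arrays. For miR-182-3p it lay nearer the gefitinib mean there (2.97, beside 3.67 with gefitinib and 1.97 with luteolin). Its mean signals before log2 were 7.85 with DMSO, 12.8 with gefitinib and 3.97 with luteolin, which place DMSO nearer luteolin. Placements of DMSO and of co-administration were not counted over all miRNAs tested. They are not read as particular to the called miRNAs. miR-630 read 32.03 and 18.6 with DMSO and 79.4 and 111 with both drugs. The co-administration values lay between the luteolin and the gefitinib values. miR-188-5p read 12.2 and 9.80 with DMSO and 16.5 and 17.6 with both drugs. miR-642a-3p read 142 and 129 with DMSO and 273 and 295 with both drugs. In these cases the co-administered cells stood above luteolin alone and below gefitinib alone, as they did for 8 of the 11.

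The 3p arms of miR-182 and miR-183 were placed differently. miR-182-3p read 7.37 and 8.32 with DMSO, between the drugs, and 2.32 and 2.62 with both drugs, below every array of either drug alone. miR-183-3p read 19.1 and 23.4 with DMSO and 12.7 and 13.0 with both drugs. They were the 2 of the 11 miRNAs for which co-administration lay below both single drugs. miR-484 read 9.44 and 10.2 with DMSO and 11.4 and 11.0 with both drugs, between the values of the single drugs in each case. miR-432-5p was detected on both DMSO arrays, at 1.92 and 2.36, and on neither array with both drugs.

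**Figure D5:**
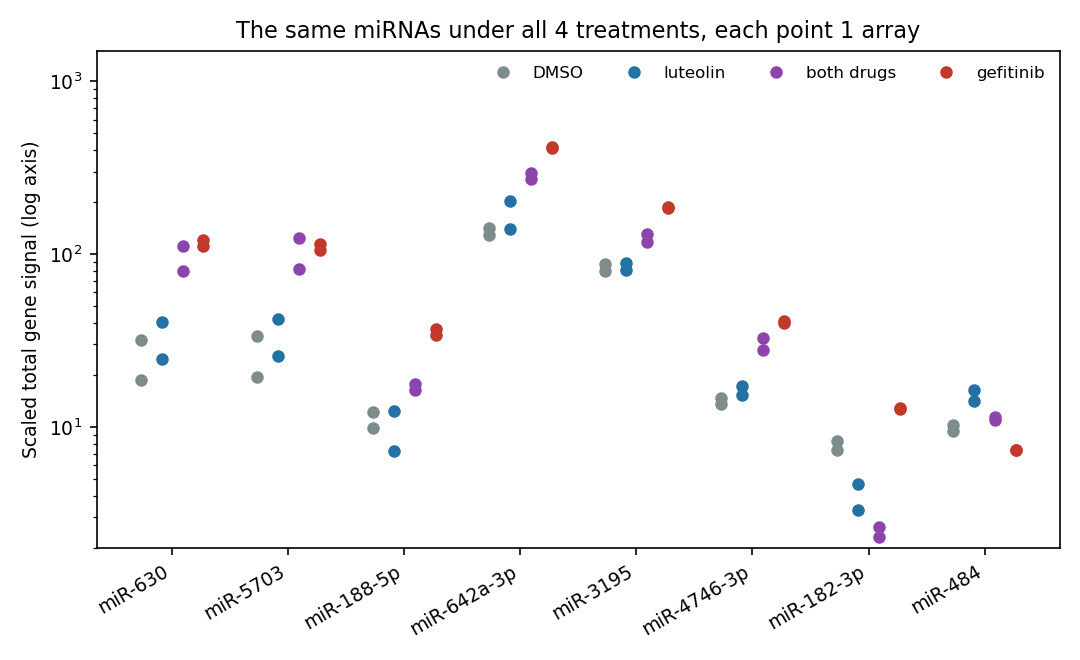
Scaled total gene signal on a log axis for 8 miRNAs under DMSO, luteolin, both drugs and gefitinib, with 1 point for each of 2 arrays in a group. For miR-630 the points stand at 40.2 and 24.8 with luteolin and at 32.03 and 18.6 with DMSO, while for miR-182-3p the points of both drugs together (2.32 and 2.62) lie below all the others.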

How the data were processed

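Scanner files of 8 one-colour Agilent miRNA arrays held the deposited total gene signal intensity, made by the authors with Agilent Feature Extraction 10.7.3.1, per the file headers. The deposited series table held spot signals on a linear intensity scale. An undetected miRNA has the value 0.1. Signals were divided by the 75th percentile over 365 miRNAs detected on all 8 arrays, which was 90.9 and 92.7 with gefitinib and 83.5 and 75.0 with luteolin, restored to the common scale, floored at 0.609 (the median over arrays of the lowest detected signal) and taken to log2. limma 3.58.1 in R 4.3.3 fitted 4 group means on 8 arrays, with 4 residual degrees of freedom. The contrast gefitinib minus luteolin was tested for 462 miRNAs detected on the 2 gefitinib arrays, the 2 luteolin arrays or all 4, with Benjamini-Hochberg adjustment. The number of arrays limits precision. Named miRNAs were miR-630 and miR-5703, and the 10 largest calls per direction detected on all 4 arrays without overlap between the drugs. Also named were the 5 undetected with luteolin that stood highest above the lowest detected signal, the 10 brightest and called list members. In a direction with under 5 calls, the 5 next lowest p values were named among miRNAs detected on all 4 arrays without overlap. Members and lists were chosen with earlier results of these data known. RefSeq sequences were matched by name. Alternatives changed scaling, background, filter, floor, test and the arrays used.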

Additional observations from a re-analysis of the deposited data

How the results depend on the processing

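The 24 calls became 61 with normexp and quantile normalization, 13 among miRNAs detected on all 4 arrays, 14 with no filter, 15 where most spots had to be well above background, 0 with only the 4 single-drug arrays, 1 with both gefitinib arrays counted as 1 sample, and 2 by the methods' t-test after adjustment. At the methods' own threshold of p and fold, the t-test gave 23 (19 higher, 4 lower). Leaving out 1 array gave 1 to 49 calls. Counts stayed within 1.5 times of 24 under the other alternatives run, from 18 with array weights to 36 with small-RNA control scaling. Medians of all miRNAs shifted to 0.217 with no scaling, 0.255 with control scaling and 0.273 with spike-in scaling, so that directions there are relative to these. Higher calls were 91.7% of all calls in the main setting, and 80.0% with scaling on the 4 single-drug arrays, 65.6% with quantile normalization, 65.6% with normexp, 62.9% with 16 added, and 100% (0 lower) with no scaling or spike-in scaling. The cause was not tested. With the replicate number as a block, 29 were called. Of the 24, miR-630 was not among them (limma adjusted p = 0.0613). The labels do not say that a number marks a shared batch. Over 365 miRNAs the replicate differences of gefitinib correlated at -0.0932 with those of luteolin, -0.135 with DMSO and 0.0652 with both drugs. Those of luteolin and DMSO correlated at 0.908, of luteolin and both drugs at 0.461, and of DMSO and both drugs at 0.409. The 75th percentile of all miRNAs was not run, since it equals the undetected value on 5 of 8 arrays. Signals near the floor carry no order.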
